A study of Mus musculus with 23 samples.

Results

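The comparison described here sets 7 tumors of the mesenteric lymph node (MLN) against 4 libraries of quiescent splenic B cells, 11 of the 23 RNA sequencing libraries in the series. The libraries were grouped by their labels, and no measured value entered the grouping. MLN tumors came from IL6Myc transgenic mice numbered 1609, 1610, 1611, 1613, 1614, 1615 and 1616, 1 MLN tumor a mouse, and are labelled as malignant plasma cells. Quiescent libraries came from spleens of wild-type BALB/c mice, and neither group was treated. All tissue was depleted of other lineages with magnetic beads to leave B cells, so cells that escaped the beads stay in the sample. The sources used here do not give the ages of the mice, the strain background of IL6Myc, the promoters of its transgenes or the number of wild-type mice, so p-values measure the spread between libraries, which may be technical in the quiescent group. Tissue (node or spleen), genotype and malignancy change together between the groups, so their parts in any difference cannot be told apart. Strain background and sex may also differ between the groups, and Y-linked levels are given below.

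Plasma cells form when activated B cells stop dividing and turn to making antibody. During their differentiation the regulators PRDM1 and XBP1 shut down the B cell programme kept by PAX5 and expand the endoplasmic reticulum (ER), where antibody chains are folded. MYC is a transcription factor that drives ribosome production, metabolism and division, and IL6 is a cytokine that signals through STAT3 and supports plasma cell survival. Multiple myeloma is the cancer of plasma cells, and the model's name joins both factors.

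The totals of estimated counts lay between 14689083 and 21842801 in the MLN tumors and between 15478591 and 24146941 in the quiescent libraries. Pearson correlations of log2 values between libraries ranged from 0.8213 to 0.9625 among MLN tumors and from 0.9889 to 0.9951 among quiescent libraries, so the tumors differed more from each other. Mouse genes are named by the human symbols of the deposited table. Y-linked genes were left out. The summed level of DDX3Y, KDM5D and UTY was 2.66 and 5.11 CPM in mice 1613 and 1614 and 117 to 280.0 CPM in the other MLN tumors, against 339 to 358 CPM in the quiescent libraries. Levels are CPM, counts scaled to library size by the TMM method, and changes are log2 ratios of MLN tumors over quiescent cells with an approximate standard error. A gene was called where edgeR's quasi-likelihood test gave a Benjamini-Hochberg adjusted p under 0.05, and adjusted p-values below are edgeR's unless another tool is named. Per-tumor values are listed in the order of mice 1609, 1610, 1611, 1613, 1614, 1615 and 1616.

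The 4 genes that mark the model and its cells moved as follows. MYC stood at 396, 1722, 411, 700.0, 804, 1154 and 1405 CPM in the MLN tumors, against 59.3, 72.8, 72.2 and 65.9 CPM in the quiescent libraries. All 7 tumors lay above all 4 quiescent libraries, and the tumors of mice 1610, 1615 and 1616 were the 3 highest. The log2 change was 3.80 ± 0.46 (SE, n = 7 and 4, edgeR adjusted p = 0.0003). The sources used here do not say whether transgene reads were counted under MYC. SDC1, the syndecan CD138 that identifies plasma cells, stood at 58.3, 345, 73.4, 113, 95.9, 193 and 474 CPM in the MLN tumors, against 24.5, 21.3, 23.02 and 24.2 CPM in the quiescent libraries. Its groups did not overlap either (log2 change 3.05 ± 0.62, adjusted p = 0.00283), and mice 1609 and 1611 were lowest among the tumors. PAX5, the factor that holds B cell identity, stood at 563, 124, 865, 849, 725, 94.1 and 180.3 CPM in the MLN tumors, against 1381, 1521, 1468 and 1473 CPM in the quiescent libraries. Every tumor lay below every quiescent library, with mice 1610, 1615 and 1616 far lower than the other tumors (log2 change -1.59 ± 0.57, adjusted p = 0.0345). PAX5 lost its call without mouse 1616 or any 1 of the 4 quiescent libraries (adjusted p = 0.0548 to 0.0674), while its log2 change stayed between -1.44 and -1.65 there. It also lost the call with library totals in place of TMM (adjusted p = 0.0587) and with all 23 libraries in the fit (adjusted p = 0.109). COL3A1, a fibrillar collagen of fibroblasts, stood at 0.424, 4.71, 55.3, 19.4, 201, 18.8 and 228 CPM in the MLN tumors, against 0.211, 0.358, 1.89 and 0.603 CPM in the quiescent libraries. It was called (log2 change 6.62 ± 1.71, adjusted p = 0.00836) although the tumor of mouse 1609 overlapped the quiescent range. Its log2 change was 6.04 without mouse 1616 and 7.52 without quiescent library 3. In limma it was 3.98 and 2.68 with pseudocounts of 1 and 5, and 3.33 with quantile normalization, which ended the call (adjusted p = 0.0503).

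**Figure D1:**
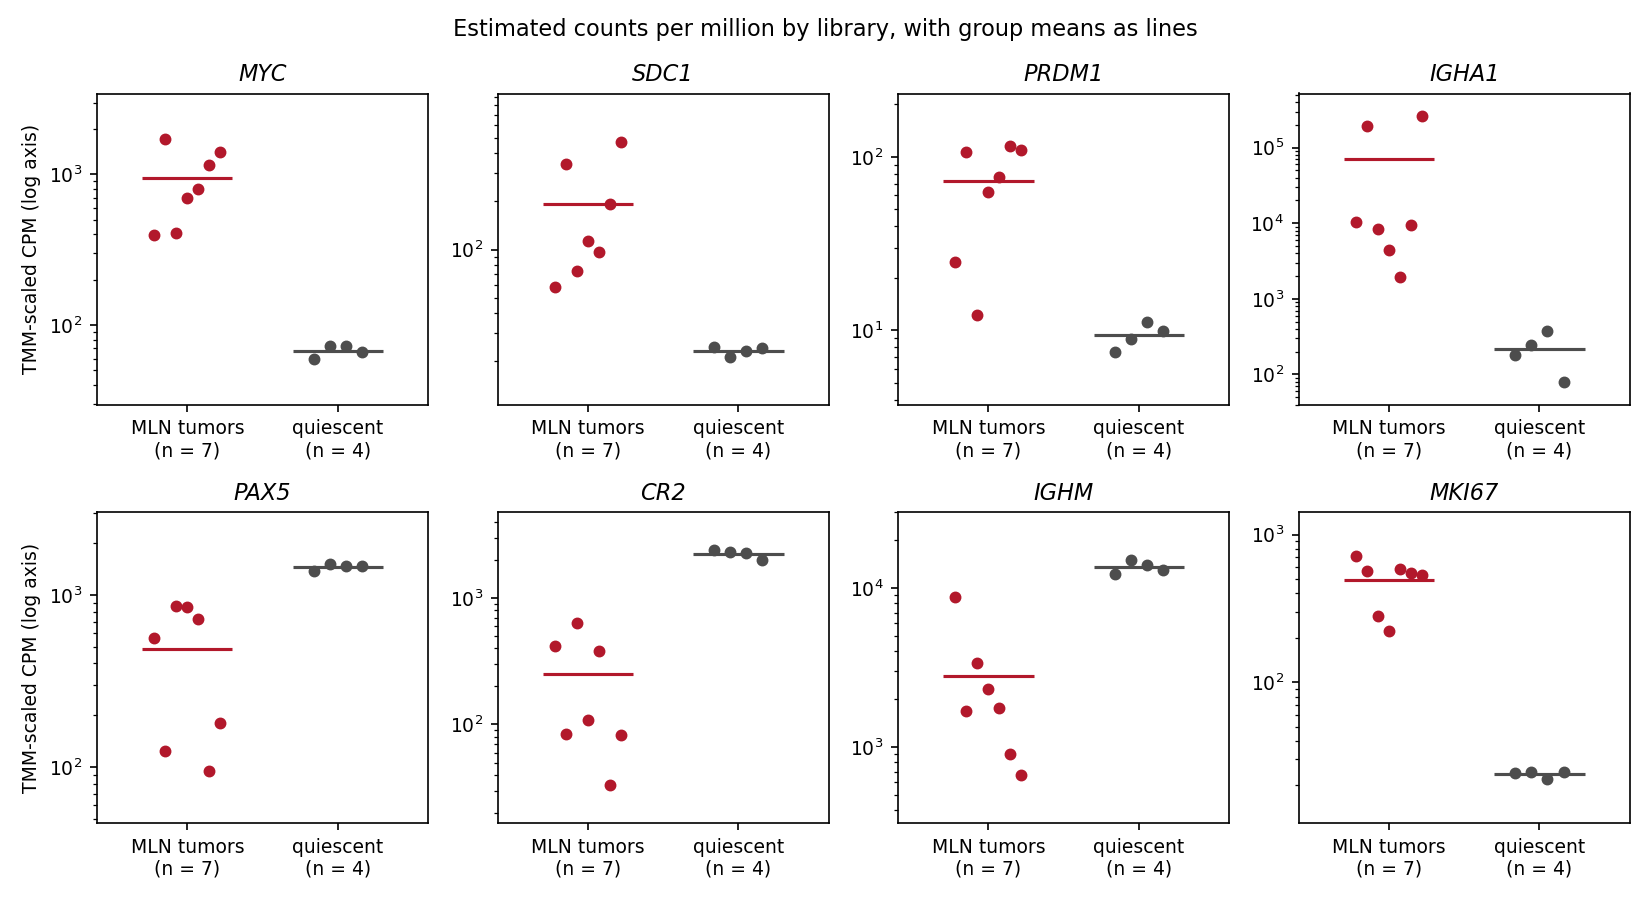
Each point is 1 library, in TMM-scaled CPM on a log axis, with MLN tumors (n = 7) on the left and quiescent B cells (n = 4) on the right of each panel and group means as lines. MYC, SDC1, PRDM1, IGHA1 and MKI67 lay higher in every MLN tumor than in any quiescent library, and PAX5, CR2 and IGHM lay lower.

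Across the transcriptome, 6208 of 11062 tested genes passed the threshold (56.1%), 3457 higher (31.3%) and 2751 lower (24.9%) in MLN tumors. The median log2 change of all tested genes was 0.07. Among the calls, 2375 higher (21.5%) and 2289 lower genes (20.7%) had no overlap between the groups. Large changes were mostly rises, with 2385 genes called at least 2-fold higher (21.6%) against 774 called at least 2-fold lower (7.00%). At 16-fold the counts were 647 higher (5.85%) and 4 lower (0.0362%). The filter of 1 CPM in at least 4 libraries did not treat the groups alike. A gene absent from quiescent cells could enter through any 4 of the 7 tumors. A gene absent from the tumors needed all 4 quiescent libraries. It was not tested how far this filter set the excess of large rises. The higher genes made up 55.7% of all calls, but 39.4% with quantile normalization in limma, which makes the distributions of all libraries equal. Counts below are to be read against these shares, since most genes differed. In bulk tissue, fewer cells of a type and less RNA per cell cannot be told apart.

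Among genes that averaged at least 10 CPM in the higher group and did not overlap, the 10 largest rises were genes with next to no reads in quiescent B cells. COX4I2, an isoform of a cytochrome oxidase subunit, had no count in any quiescent library and 2.72 to 92.2 CPM in the MLN tumors, at least 797-fold higher against a floor of 3 counts over the group. A profile of SERPINA3, an acute-phase protease inhibitor with several mouse copies, was at least 416-fold higher by the same floor. The zinc finger factor OVOL3 had a count ratio of 3660 (95% counting interval 656 to 145000), from a single count in quiescent cells. For EPHA8, an ephrin receptor, the ratio was 2080 (712 to 10100), with 8.53 to 177 CPM against 0 to 0.158 CPM in MLN tumors and quiescent cells. It was 2000 (359 to 79200) for CHRND, a subunit of the muscle acetylcholine receptor, and 1610 (288 to 63400) for PLPPR1, a membrane protein of neurons. EEF1A2 (an elongation factor of muscle and neurons), NPW (a neuropeptide), PHYHIP and C6orf15 completed the 10 largest, with count ratios of 1130 (202 to 44500), 835 (150 to 33000), 827 (283 to 4010) and 676 (356 to 1480). These intervals cover counting error only. That all 10 lay higher in every MLN tumor than in any quiescent library follows from how they were picked. They also passed the 1 CPM filter through the tumors alone. The fitted log2 change of OVOL3 was 10.64 without mouse 1616 and 12.93 without quiescent library 2, against 11.54 with all libraries. The fitted values of EPHA8 (11.02) and CHRND (10.61) were 13.70 and 12.07 without quiescent library 3. The fitted value of PLPPR1 (10.34) was 11.73 without quiescent library 2. For EEF1A2 (9.76) it was 9.06 without mouse 1615 and 11.24 without quiescent library 1, for C6orf15 (9.45) 8.81 without mouse 1613 and 10.51 without quiescent library 3, and for NPW (9.43) 8.59 without mouse 1616 and 10.80 without quiescent library 2.

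The 10 largest falls by the same rule were smaller in size. A second profile under the name CEACAM1, a cell adhesion molecule, fell most (0 to 1.296 CPM against 8.32 to 14.01 CPM, log2 change -4.80 ± 0.92, adjusted p = 0.00209) and had a log2 change of -5.52 without mouse 1611. Its names also cover further members of the CEACAM and PSG family. PTPN14, a tyrosine phosphatase, was between 1.94 and 28.3 CPM in the MLN tumors (median 15.4), against 145, 142, 152 and 176 CPM in the quiescent libraries (log2 change -3.58 ± 0.66, adjusted p = 0.0018). SLC4A11, a membrane transporter, fell by 3.37 ± 0.46 on the log2 scale (adjusted p = 0.000482), with 0.535 to 3.55 CPM against 19.6 to 21.7 CPM in MLN tumors and quiescent cells. NEBL (-3.49), CRISP3 (-3.42), GAD1 (-3.19) and CPNE4 (-3.16) also fell, without overlap as the rule requires. GAPT, an adaptor protein of B cells, and IL12A, a cytokine subunit, had log2 changes of -2.89 and -2.85. That of IL12A was -3.60 without mouse 1611. CR2, the complement receptor of mature B cells, is described with the B cell genes.

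A separate set was picked for the lowest adjusted p-values, 8 genes in each direction, among those changed at least 2-fold. MID1, a microtubule-associated ubiquitin ligase, stood at 484, 622, 517, 1119.6, 508, 542 and 567 CPM in the MLN tumors, against 16.6, 18.9, 15.03 and 13.3 CPM in the quiescent libraries. Every tumor lay far above the quiescent libraries, with mouse 1613 highest (log2 change 5.28 ± 0.31, adjusted p = 1.59e-05). The profile shared by BORCS8-MEF2B, which holds a transcription factor of germinal center B cells, rose by 4.25 ± 0.26 (adjusted p = 1.59e-05, 37.1 to 89.5 CPM against 3.14 to 3.98 CPM). The mitotic genes NEK2, CCNB1, KIF11, KIF22 and MKI67 made up most of the rest, with log2 changes of 4.17, 4.27, 4.12, 3.78 and 4.36. A metallothionein profile listed under MT1A and other names of that metal-binding family was between 44.9 and 186 CPM in the MLN tumors (median 82.6), against 0.579, 0.755, 1.16 and 0.362 CPM in the quiescent libraries (log2 change 7.21 ± 0.60, adjusted p = 8.42e-05). The falls picked in this way included CERS4 (a ceramide synthase, 24.7 to 34.7 CPM against 73.0 to 89.96 CPM, log2 change -1.42 ± 0.11, adjusted p = 7.51e-05) and UGCG, which makes glucosylceramide from ceramide (92.9 to 122 CPM against 206 to 237 CPM, log2 change -1.05 ± 0.10, adjusted p = 9.82e-05). PTK2B, a kinase related to focal adhesion kinase, was between 239 and 404 CPM in the MLN tumors (median 342), against 892, 849, 866 and 783 CPM in the quiescent libraries (log2 change -1.37 ± 0.14, adjusted p = 0.000126). L1CAM, an adhesion molecule known from neurons, had a log2 change of -2.60, and PIK3R4, a regulatory subunit of the lipid kinase VPS34, of -1.62. GPRASP1 (-1.63), the zinc transporter SLC39A10 (-1.06) and the ciliary transport gene IFT140 (-1.21) completed this set. These 8 falls showed no overlap between the groups, and neither did the 8 rises. Picking by the lowest adjusted p-values favors such genes, and 42.2% of all tested genes were called without overlap.

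Plasma cell genes were mostly higher in MLN tumors. Of 17 tested genes of plasma cell identity 13 were called higher and 1 lower, with a median log2 change of 2.95, against 31.3% and 24.9% of all genes and a median of 0.07. PRDM1, the repressor that ends the B cell programme, was between 12.3 and 116 CPM in the MLN tumors (median 76.9), against 7.48, 8.90, 11.2 and 9.95 CPM in the quiescent libraries (log2 change 2.95 ± 0.58, adjusted p = 0.00252). XBP1, the factor that expands the secretory apparatus, was between 223 and 3428 CPM in the MLN tumors (median 1226), against 172, 175, 187 and 164 CPM in the quiescent libraries (log2 change 3.05 ± 0.67, adjusted p = 0.00411). Every tumor lay above every quiescent library for both genes, with the tumor of mouse 1611 closest to them for PRDM1 (12.3 CPM). CD28, a costimulatory receptor that plasma cells share with T cells, rose by 6.46 ± 1.08 (2.09 to 61.6 CPM against 0.158 to 0.316 CPM, adjusted p = 0.00119). Without mouse 1610, whose T cell markers were the highest, its log2 change was 5.80. FKBP11 and DERL3, proteins of ER folding and of the export of misfolded chains, rose by 4.93 ± 0.92 and 4.68 ± 0.97 (adjusted p = 0.00185 and 0.00311). DERL3 kept a log2 change of 4.08 without mouse 1616. JCHAIN, which joins antibodies into polymers, was called (log2 change 2.09 ± 0.77, adjusted p = 0.038), but its range of 371 to 13130.4 CPM in MLN tumors overlapped the 1103 to 1462 CPM of quiescent libraries. JCHAIN lost its call without mouse 1610, 1615 or 1616 or any 1 of the 4 quiescent libraries (adjusted p = 0.0510 to 0.0934).

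Not every plasma cell gene followed. IRF4, a factor needed by plasma cells, stood at 164, 818, 161, 383, 354, 492 and 862 CPM in the MLN tumors, against 244, 247, 247 and 207 CPM in the quiescent libraries (log2 change 0.97 ± 0.46, adjusted p = 0.0909). The tumors straddled the quiescent level, and IRF4 passed without mouse 1609 or 1611 (adjusted p = 0.0367 to 0.0398). TNFRSF17, the receptor BCMA, was between 0.752 and 16.4 CPM in the MLN tumors (median 4.75), against 1.42, 2.66, 1.73 and 1.33 CPM in the quiescent libraries (log2 change 1.80 ± 0.79, adjusted p = 0.0708), and passed without mouse 1611 (adjusted p = 0.0274). CD38, a surface enzyme that is high on human plasma cells, fell instead, with 92.4 to 228 CPM against 225 to 237 CPM in MLN tumors and quiescent cells (log2 change -0.83 ± 0.21, adjusted p = 0.00852). The mean log2(CPM + 1) level of the 17 genes ranged from 5.68 to 8.88 in MLN tumors, against 5.20 to 5.31 in quiescent libraries. Mice 1616, 1610 and 1615 had the highest levels (8.88, 8.48 and 7.58) and mouse 1611 the lowest (5.68). SDC1, PRDM1 and XBP1 thus exceeded every quiescent library in all 7 tumors labelled malignant plasma cells, and the tumor of mouse 1611 lay closest to quiescent B cells on the list as a whole.

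Immunoglobulin genes took 11.8% ± 9.74 of all counts in MLN tumors (SD, n = 7, range 2.02% to 26.3%), against 2.49% ± 0.244 in quiescent libraries (SD, n = 4, range 2.24% to 2.79%). The difference of 9.31 percentage points did not pass an exact permutation test over the 11 libraries (two-sided p = 0.0818, 330 splits). Without mouse 1611, the only tumor below the quiescent range, it was 10.9 points and passed (exact permutation p = 0.0476). The constant genes changed in opposite directions. IGHA1, which stands for the mouse alpha chain of IgA, was between 1919 and 259989.8 CPM in the MLN tumors (median 9495), against 182, 242, 371 and 79.8 CPM in the quiescent libraries (log2 change 8.32 ± 1.92, adjusted p = 0.00502). Its groups did not overlap, and mice 1610 and 1616 far exceeded the other tumors. Without mouse 1616 the log2 change was 7.43. IGHM, the mu chain of IgM on naive B cells, was between 662 and 8782 CPM in the MLN tumors (median 1757), against 12341, 15048, 13878 and 12944 CPM in the quiescent libraries and fell without overlap (log2 change -2.29 ± 0.59, adjusted p = 0.00834). It fell further without mouse 1609 (-2.92). The kappa light chain constant gene IGKC rose by 2.91 ± 0.74 (adjusted p = 0.00788), although the lowest tumor lay below the quiescent range (5302 to 102958 CPM against 5994 to 7865 CPM). IGHE, the epsilon chain of IgE, was called (log2 change 4.89 ± 1.82, adjusted p = 0.039), but its highest value, 169 CPM, came from mouse 1614. IGHE did not pass without mouse 1610 or 1614 or any 1 of the 4 quiescent libraries (adjusted p = 0.0575 to 0.0950), and its log2 change was 3.49 without mouse 1614. The gamma and delta chains were not analysed here.

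Among the summed counts of IGHM, IGHA1 and IGHE, not divided by gene length, IGHA1 made up 53.8%, 99.1%, 71.4%, 65.5%, 49.9%, 91.3% and 99.8% in the MLN tumors, against 1.45%, 1.58%, 2.61% and 0.613% in the quiescent libraries. Within this sum every tumor thus gave a far larger share to the alpha chain than any quiescent library, and IGHE reached 4.39% of the sum in mouse 1614. Gamma and delta chains are not part of the sum, so the share of the alpha chain among all heavy chains is not known.

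V genes encode the variable part of an antibody chain, and a B cell clone expresses a single heavy and usually a single light chain. Heavy chain V counts fell into 15 profiles. The most abundant profile held 47.0%, 95.3%, 90%, 85.5%, 62.5%, 57.3% and 81.5% of them in the MLN tumors, against 27.6%, 41.4%, 35.5% and 34.7% in the quiescent libraries. In 6 tumors and all 4 quiescent libraries this was the profile named IGHV7-81, and in mouse 1615 it was one named IGHV3-15. The tumors rest on between 1408 (mouse 1614) and 542243 (mouse 1610) heavy chain V counts. Only V genes listed under a human name enter these counts. In mouse 1616, 13791 heavy chain V counts stood beside an IGHA1 level of 259989.8 CPM. How many V reads lie outside the profiles is not known, so the shares may miss the main V gene of a tumor. Kappa V counts fell into 24 profiles, and the most abundant held 50.3%, 49.6%, 14.5%, 59.0%, 98.0%, 64.3% and 95.3% in the MLN tumors, against 11.1%, 44.1%, 14.3% and 13.3% in the quiescent libraries. The kappa profile that led differed between tumors. It carried the name IGKV6-21 in mice 1609 and 1610 (different profiles of that name), IGKV5-2 in mouse 1611, IGKV2-30 in mouse 1613 and IGKV4-1 in mice 1614, 1615 and 1616 (1 profile in 1614 and 1615, another in 1616). Mouse 1611, with its 14.5%, lay within the quiescent range. The human names do not tell which mouse V genes were counted, and a profile may pool several of them. Its share of the V counts is thus an upper bound only for a mouse gene pooled in it, and says nothing of V genes outside the profiles.

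**Figure D2:**
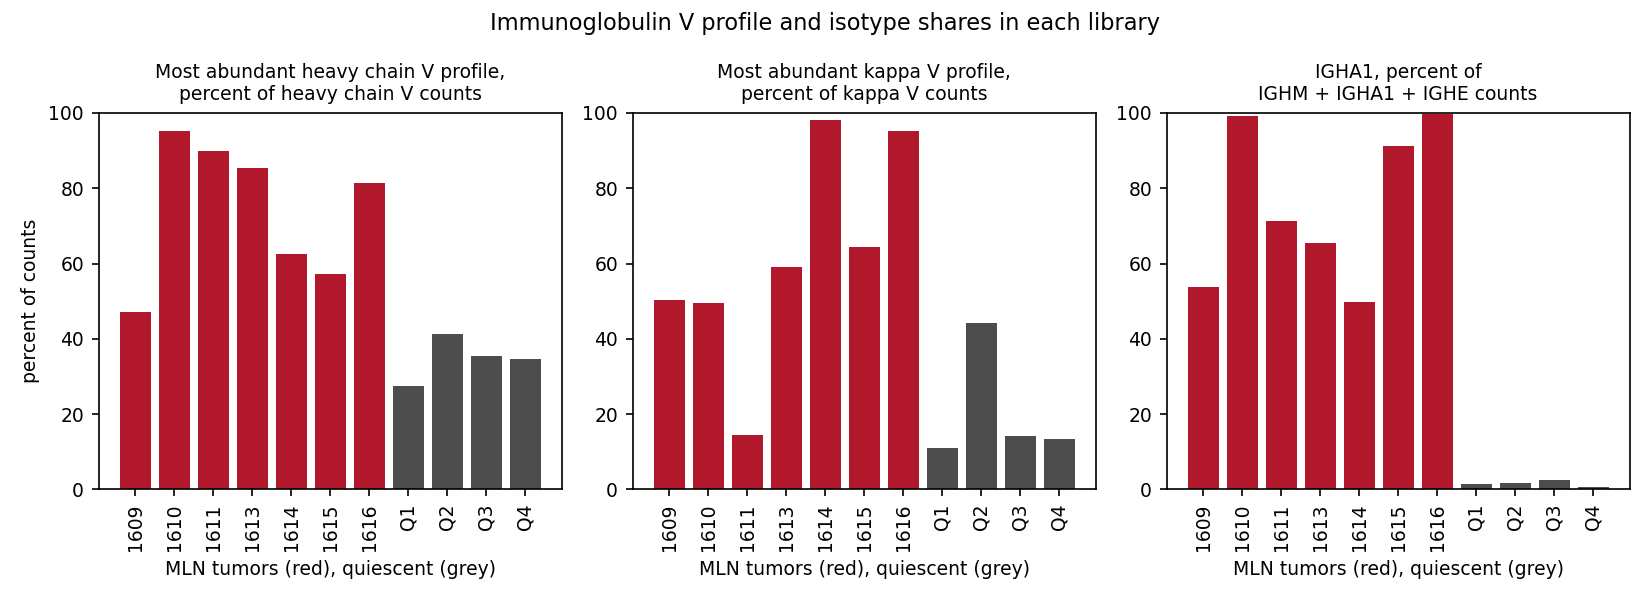
Bars give, for each MLN tumor by mouse number (red, left) and each quiescent library (grey, right), the percent of heavy chain V counts and of kappa V counts held by the most abundant profile, and the percent of IGHM, IGHA1 and IGHE counts held by IGHA1. Heavy chain shares of 47.0% to 95.3% in the tumors lay above the 27.6% to 41.4% of quiescent libraries, while kappa shares overlapped through mouse 1611.

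The secretory apparatus rose with the plasma cell genes. Of 30 tested genes of the unfolded protein response and ER folding 24 were called higher and 0 lower (median log2 change 1.95). Of 38 genes of ER translocation and vesicle transport 30 were higher and 0 lower (median 1.34). HSPA5, the main chaperone of the ER, picked after its values were seen, stood at 1135, 5654, 863, 2379, 1375, 2732 and 9176 CPM in the MLN tumors, against 711, 657, 693 and 631 CPM in the quiescent libraries. All tumors exceeded the quiescent libraries, by little in mouse 1611 and most in mice 1610 and 1616 (log2 change 2.31 ± 0.66, adjusted p = 0.0128). PDIA5, a disulfide isomerase, was between 1.92 and 83.9 CPM in the MLN tumors (median 9.17), against 0.263, 0.636, 0.788 and 0.603 CPM in the quiescent libraries (log2 change 5.52 ± 1.199, adjusted p = 0.00382), and its log2 change was 4.86 without mouse 1610. CRELD2, a protein induced by ER stress, was between 104 and 2922 CPM in the MLN tumors (median 719), against 63.5, 67.0, 67.4 and 61.3 CPM in the quiescent libraries (log2 change 4.01 ± 0.88, adjusted p = 0.00389). SEL1L, which escorts misfolded proteins out of the ER, rose by 3.66 ± 0.79 (adjusted p = 0.00362). KDELR3, a receptor that returns proteins to the ER, and the translocon proteins SSR4 and SSR2 rose by 6.32 ± 1.23, 3.33 ± 0.72 and 2.74 ± 0.60 (adjusted p = 0.00226, 0.00384 and 0.00389). The mean log2 level of the 30 folding genes ranged from 7.29 (mouse 1611) to 10.16 (mouse 1616) in MLN tumors, against 6.96 to 7.06 in quiescent libraries.

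ATF4 is the factor that a further branch of this response uses to raise amino acid synthesis. Of 27 genes of the ATF4 and amino acid response 22 were called higher and 1 lower (median 2.21). PYCR1, which makes proline, was between 8.65 and 233 CPM in the MLN tumors (median 107), against 1.53, 2.27, 1.89 and 1.69 CPM in the quiescent libraries (log2 change 5.95 ± 0.92, adjusted p = 0.000877). ASNS, which makes asparagine, was between 19.9 and 194 CPM in the MLN tumors (median 92.5), against 4.37, 2.19, 2.21 and 2.17 CPM in the quiescent libraries (log2 change 5.28 ± 0.70, adjusted p = 0.000439). CHAC1, which degrades glutathione, rose by 4.78 ± 1.07 with a small overlap (0.594 to 22.6 CPM against 0.159 to 0.683 CPM, adjusted p = 0.00431). CEBPG, a partner of ATF4, was the member called lower, by 0.25 ± 0.10 on the log2 scale (adjusted p = 0.0472). CEBPG lost this call without mouse 1609, 1613, 1614, 1615 or 1616 or quiescent library 4 (adjusted p = 0.0569 to 0.0837).

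The factor ATF6 and its relatives act on the ER stress response element (ERSE), which reads CCAAT, then 9 bases of any kind, then CCACG. The 250 bases before the start of each gene were searched for it on both strands, with the RefSeq promoter table of build GRCm38.p6. It was found in 5 of the 21 matched genes among the 24 higher ER folding genes (23.8%), against 35 of 27025 genes with a promoter (0.13%). These 5 were Creld2, Hsp90b1, Hspa5, Pdia6 and Dnajc3. The promoters of Creld2 and Hspa5 are shown as examples, with the element in capitals. That of Creld2 lies at chr15:88819396-88819645 (+ strand) and that of Hspa5 at chr2:34771840-34772089 (+ strand).
Creld2: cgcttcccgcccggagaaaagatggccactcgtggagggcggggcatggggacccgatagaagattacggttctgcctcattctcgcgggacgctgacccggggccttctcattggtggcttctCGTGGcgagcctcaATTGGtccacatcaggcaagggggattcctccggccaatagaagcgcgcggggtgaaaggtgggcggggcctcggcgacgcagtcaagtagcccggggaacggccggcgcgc
Hspa5: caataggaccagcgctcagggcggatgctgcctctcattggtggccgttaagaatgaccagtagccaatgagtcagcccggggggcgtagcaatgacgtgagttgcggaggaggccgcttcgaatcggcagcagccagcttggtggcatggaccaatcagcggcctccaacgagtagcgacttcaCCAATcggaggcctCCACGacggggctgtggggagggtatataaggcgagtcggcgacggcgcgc
A match describes letters in this window and shows no binding. The list holds genes already known for this response, and its members that were not called were not compared. The share therefore describes the list and does not measure activity of the response in these tumors.

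Genes that MYC is known to activate rose widely and by moderate amounts. Of 51 tested MYC targets 47 were called higher and 0 lower, with a median log2 change of 0.97. SRM, which makes spermidine, was between 80.3 and 434 CPM in the MLN tumors (median 167), against 35.2, 33.4, 30.2 and 25.8 CPM in the quiescent libraries (log2 change 2.78 ± 0.45, adjusted p = 0.00104). HK2, the first enzyme of glycolysis, and C1QBP, a mitochondrial protein, rose by 2.78 ± 0.45 and 1.88 ± 0.26 (adjusted p = 0.00105 and 0.000469). 2 further targets were picked after their values were seen. The nucleolar methyltransferase NOP2 was between 71.8 and 172 CPM in the MLN tumors (median 102), against 46.5, 45.9, 45.5 and 37.8 CPM in the quiescent libraries (log2 change 1.34 ± 0.23, adjusted p = 0.00122). CDK4, the kinase that starts the cell cycle, was between 148 and 320.1 CPM in the MLN tumors (median 220.5), against 99.5, 85.9, 107 and 89.7 CPM in the quiescent libraries (log2 change 1.29 ± 0.22, adjusted p = 0.00124). None of these 5 genes overlapped between the groups. Of 34 ribosomal proteins 32 were higher and 0 lower, by a median of 0.73, and RPLP0, RPL3 and RPL32 rose by 1.45 ± 0.26, 1.09 ± 0.18 and 1.08 ± 0.21 (adjusted p = 0.00154, 0.00116 and 0.00237). Ribosomal protein genes have many processed copies, so their counts are uncertain.

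MYC binds DNA at the E-box CACGTG. The same promoter windows held it in 9 of the 42 matched genes among the 47 higher MYC targets (21.4%), against 1854 of 27025 genes with a promoter (6.86%). Since CACGTG reads the same on both strands, each match counts once. Cdk4 had 4 copies, the most among the 9 genes, at chr10:127063285-127063534 (+ strand), and Nop2 had 1 copy at chr6:125131633-125131882 (+ strand). E-boxes are in capitals.
Cdk4: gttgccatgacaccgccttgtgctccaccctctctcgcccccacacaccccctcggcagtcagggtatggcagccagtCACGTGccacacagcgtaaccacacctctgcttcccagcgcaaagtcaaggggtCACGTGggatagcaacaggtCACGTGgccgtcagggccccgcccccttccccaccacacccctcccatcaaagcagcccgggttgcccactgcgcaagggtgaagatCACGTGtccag
Nop2: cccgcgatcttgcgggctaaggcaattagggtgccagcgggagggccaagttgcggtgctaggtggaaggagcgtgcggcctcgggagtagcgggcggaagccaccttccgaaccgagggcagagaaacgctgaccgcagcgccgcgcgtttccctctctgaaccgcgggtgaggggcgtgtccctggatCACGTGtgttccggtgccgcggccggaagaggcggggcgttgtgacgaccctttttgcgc
The ERSE was in 0 of the 42 MYC targets, and the E-box in 1 of the 21 ER folding genes (4.76%). As with the ERSE, the E-box share describes a list of known targets and does not measure MYC activity in these tumors.

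The partners and antagonists of MYC moved less as a group (4 higher and 1 lower of 11, median 0.34). MXD3, which competes with MYC for its partner MAX, was between 3.31 and 12.5 CPM in the MLN tumors (median 5.42), against 0.474, 0.954, 0.893 and 1.21 CPM in the quiescent libraries (log2 change 2.87 ± 0.44, adjusted p = 0.000811). MYCL, a relative of MYC, was called (log2 change 1.85 ± 0.54, adjusted p = 0.0145) but overlapped, and lost the call without quiescent library 1 or 2 (adjusted p = 0.0515 to 0.0519). MGA, a repressor that also pairs with MAX, fell without overlap (104 to 189 CPM against 264 to 286 CPM, log2 change -0.96 ± 0.16, adjusted p = 0.00109). Without mouse 1611, 8 members of this list were called.

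B cell identity genes were lower in MLN tumors. Of 30 tested genes 24 were called lower and 0 higher (median log2 change -1.48). All 24 called genes had no overlap between the groups, as did 2289 of the 2751 genes called lower over all tested genes. CR2, the complement receptor CD21, stood at 419, 84.7, 638, 108, 379, 33.1 and 83.0 CPM in the MLN tumors, against 2401, 2315, 2295 and 1999 CPM in the quiescent libraries. It was lowest in mouse 1615 and highest in mouse 1611, and fell by 3.18 ± 0.68 on the log2 scale (adjusted p = 0.00359). FCER2, the IgE receptor CD23, was between 56.7 and 488 CPM in the MLN tumors (median 205), against 1263, 1321, 1216 and 1334 CPM in the quiescent libraries (log2 change -2.35 ± 0.50, adjusted p = 0.00359). CD55, which protects cells from complement, fell by 2.31 ± 0.56 (adjusted p = 0.00612). MS4A1, which encodes CD20, stood at 733, 230.4, 1363, 776, 908, 129.6 and 270.5 CPM in the MLN tumors, against 1978, 2047, 2089 and 2055 CPM in the quiescent libraries (log2 change -1.70 ± 0.53, adjusted p = 0.0186). The mean log2 level of the 30 genes was 8.15, 6.61, 8.64, 8.25, 8.30, 6.28 and 6.86 in the MLN tumors, against 9.34 to 9.38 in the quiescent libraries. Mice 1610, 1615 and 1616 were lowest, and mouse 1611 came nearest to quiescent B cells. With all 23 libraries in the fit, 13 of these genes were called lower.

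B cell receptor signaling moved the same way, with 17 of 20 genes lower and 0 higher (median -0.82). RASGRP3, which activates RAS, was between 60.3 and 235 CPM in the MLN tumors (median 130.1), against 399, 471, 428 and 465.6 CPM in the quiescent libraries (log2 change -1.68 ± 0.33, adjusted p = 0.00241). MALT1, a protease that links the receptor to NF-kB, and PTPN6, an inhibitory phosphatase, fell by 1.53 ± 0.42 and 1.48 ± 0.35 (adjusted p = 0.0115 and 0.00596). Of 12 genes of antigen presentation by MHC class II 6 were called lower and 0 higher (median -0.93), but 1 to 3 under several alternatives given below. CD74, the invariant chain that loads class II molecules, was between 1674 and 7316 CPM in the MLN tumors (median 5467), against 11171, 11580.3, 11392 and 10384 CPM in the quiescent libraries (log2 change -1.32 ± 0.42, adjusted p = 0.021). HLA-DOB and HLA-DMB, mouse chaperones of peptide loading listed by human names, fell by 1.49 ± 0.53 and 1.44 ± 0.54 (adjusted p = 0.0338 and 0.0403). HLA-DOB lost its call without mouse 1610 or 1616 or any 1 of the 4 quiescent libraries (adjusted p = 0.0523 to 0.0638), and HLA-DMB without mouse 1609, 1610 or 1616 or any 1 of the 4 quiescent libraries (adjusted p = 0.0541 to 0.0751). Of the class II genes 3 were lower without mouse 1610 or 1616, and 2 without any 1 of the 4 quiescent libraries or with library totals in place of TMM. With all 23 libraries in the fit, 1 was lower. Macrophages and dendritic cells also express class II genes, and their markers were higher in MLN tumors (values below), a part in the result that was not tested.

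**Figure D3:**
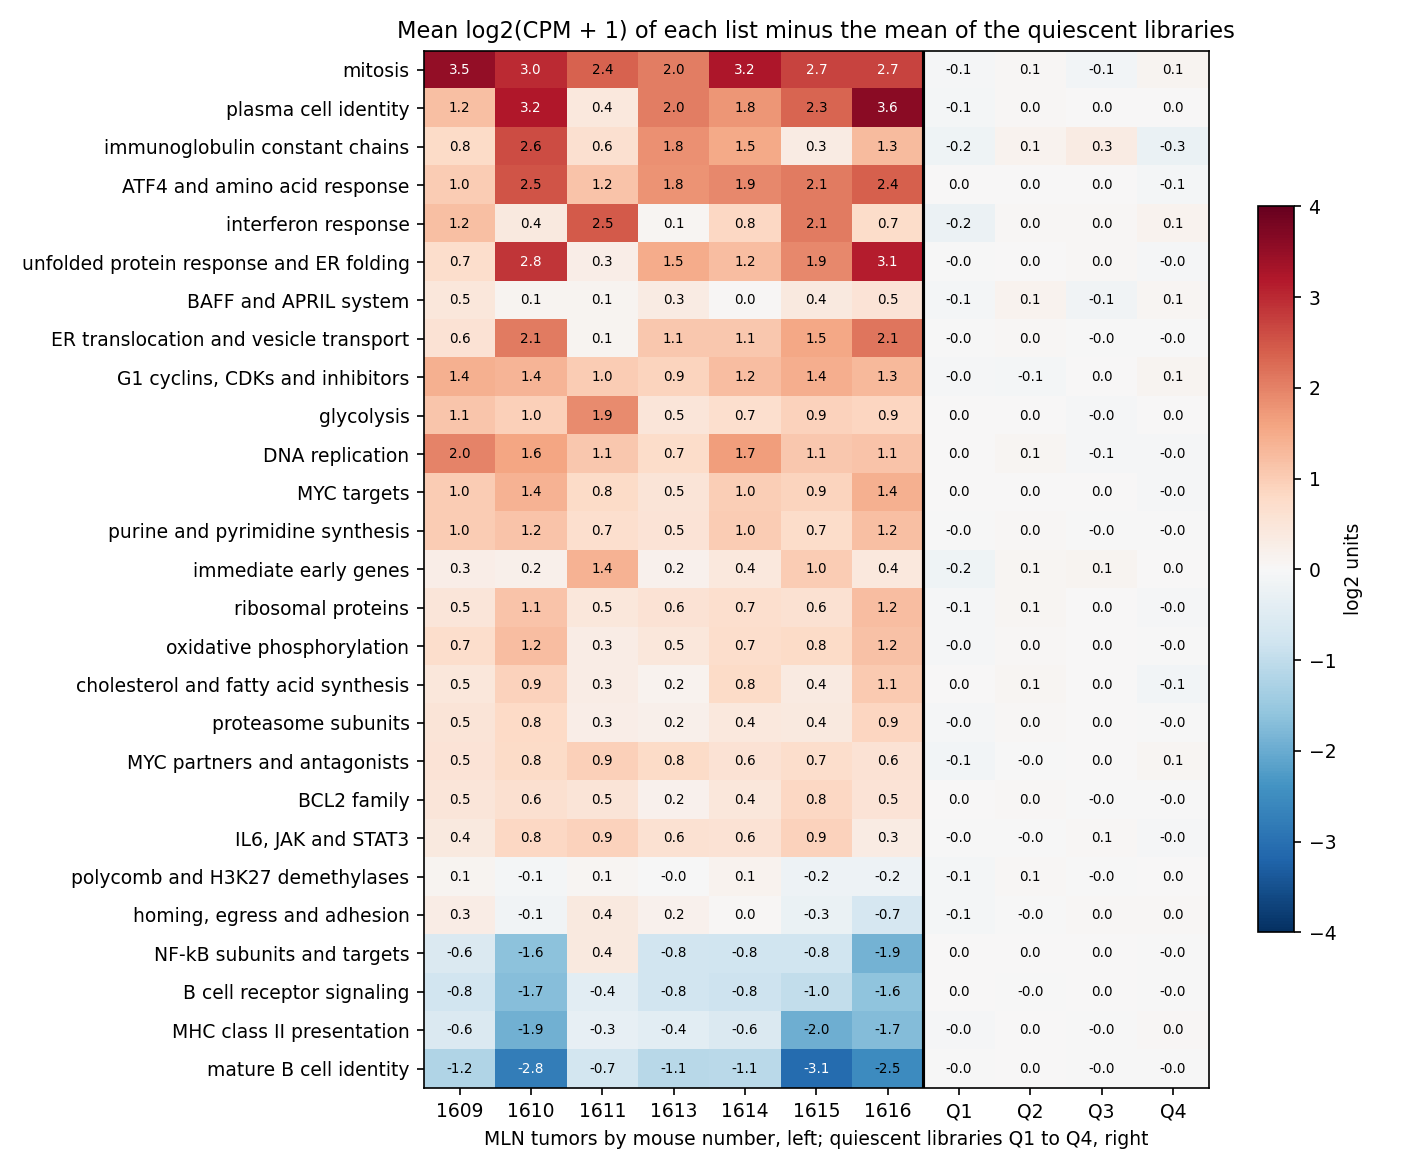
Each cell is the mean log2(CPM + 1) of a gene list in 1 library minus the mean of the 4 quiescent libraries, with MLN tumors by mouse number on the left and quiescent libraries on the right. Mitosis genes lay above the quiescent level in all 7 tumors, B cell identity genes lay below it, and mice 1610 and 1616 had the highest plasma cell and ER folding levels.

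Cell division genes rose almost without exception. Of 42 tested mitosis genes 41 were higher and 0 lower (median log2 change 3.63), and of 38 DNA replication genes 33 were higher and 1 lower (median 1.17). MKI67, the antigen of dividing cells, was between 224 and 711 CPM in the MLN tumors (median 552), against 24.4, 24.7, 22.2 and 24.8 CPM in the quiescent libraries (log2 change 4.36 ± 0.35, adjusted p = 8.42e-05). BIRC5 (survivin), UBE2C (a ubiquitin enzyme of mitotic exit) and CCNA2 (cyclin A2) rose by 4.70 ± 0.44, 4.53 ± 0.38 and 4.45 ± 0.39 (adjusted p = 9.82e-05, 8.42e-05 and 8.42e-05). The replication licensing genes CDC6 and MCM10 rose by 4.75 ± 0.53 and 4.54 ± 0.49 (adjusted p = 0.000206 and 0.000165). RRM2, which makes deoxynucleotides, was between 57.2 and 201 CPM in the MLN tumors (median 134), against 6.37, 9.06, 6.83 and 7.18 CPM in the quiescent libraries (log2 change 4.20 ± 0.40, adjusted p = 9.82e-05). POLD1, a replicative DNA polymerase subunit, was called lower (46.2 to 139 CPM against 207 to 279 CPM, log2 change -1.40 ± 0.28, adjusted p = 0.00273). Groups did not overlap for any of these genes. The mean log2 level of mitosis genes ranged from 4.69 (mouse 1613) to 6.17 (mouse 1609) in MLN tumors, against 2.55 to 2.77 in quiescent libraries, so the order of tumors was not that of plasma cell genes.

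Regulators of entry into the cycle were mixed. Of 17 G1 cyclins, kinases and inhibitors 10 were higher and 1 lower (median 1.32). CCND2, cyclin D2, was between 145 and 937 CPM in the MLN tumors (median 401), against 68.6, 60.8, 67.1 and 80.1 CPM in the quiescent libraries (log2 change 2.96 ± 0.52, adjusted p = 0.00152). CCND1 was called at low levels (2.62 to 16.5 CPM against 1.95 to 5.85 CPM, log2 change 1.32 ± 0.47, adjusted p = 0.0341). CCND1 did not pass without mouse 1609 or 1615 or quiescent library 1, 2 or 3 (adjusted p = 0.0544 to 0.112). CCND3 did not pass (61.1 to 184 CPM against 88.9 to 129 CPM, log2 change 0.11 ± 0.25, adjusted p = 0.739). Among the D cyclins, then, CCND2 alone rose without overlap. CDKN1A, the p53-induced inhibitor p21, was between 20.9 and 138 CPM in the MLN tumors (median 86.1), against 2.11, 3.86, 2.26 and 2.23 CPM in the quiescent libraries (log2 change 4.84 ± 0.57, adjusted p = 0.000249), while CDKN1B, the inhibitor p27 of resting cells, fell (94.1 to 189 CPM against 234 to 268 CPM, log2 change -0.86 ± 0.17, adjusted p = 0.00274). E2F8 and CCNE2, which act at the start of DNA synthesis, rose by 4.28 ± 0.46 and 4.02 ± 0.43 (adjusted p = 0.000172 and 0.00016).

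**Figure D4:**
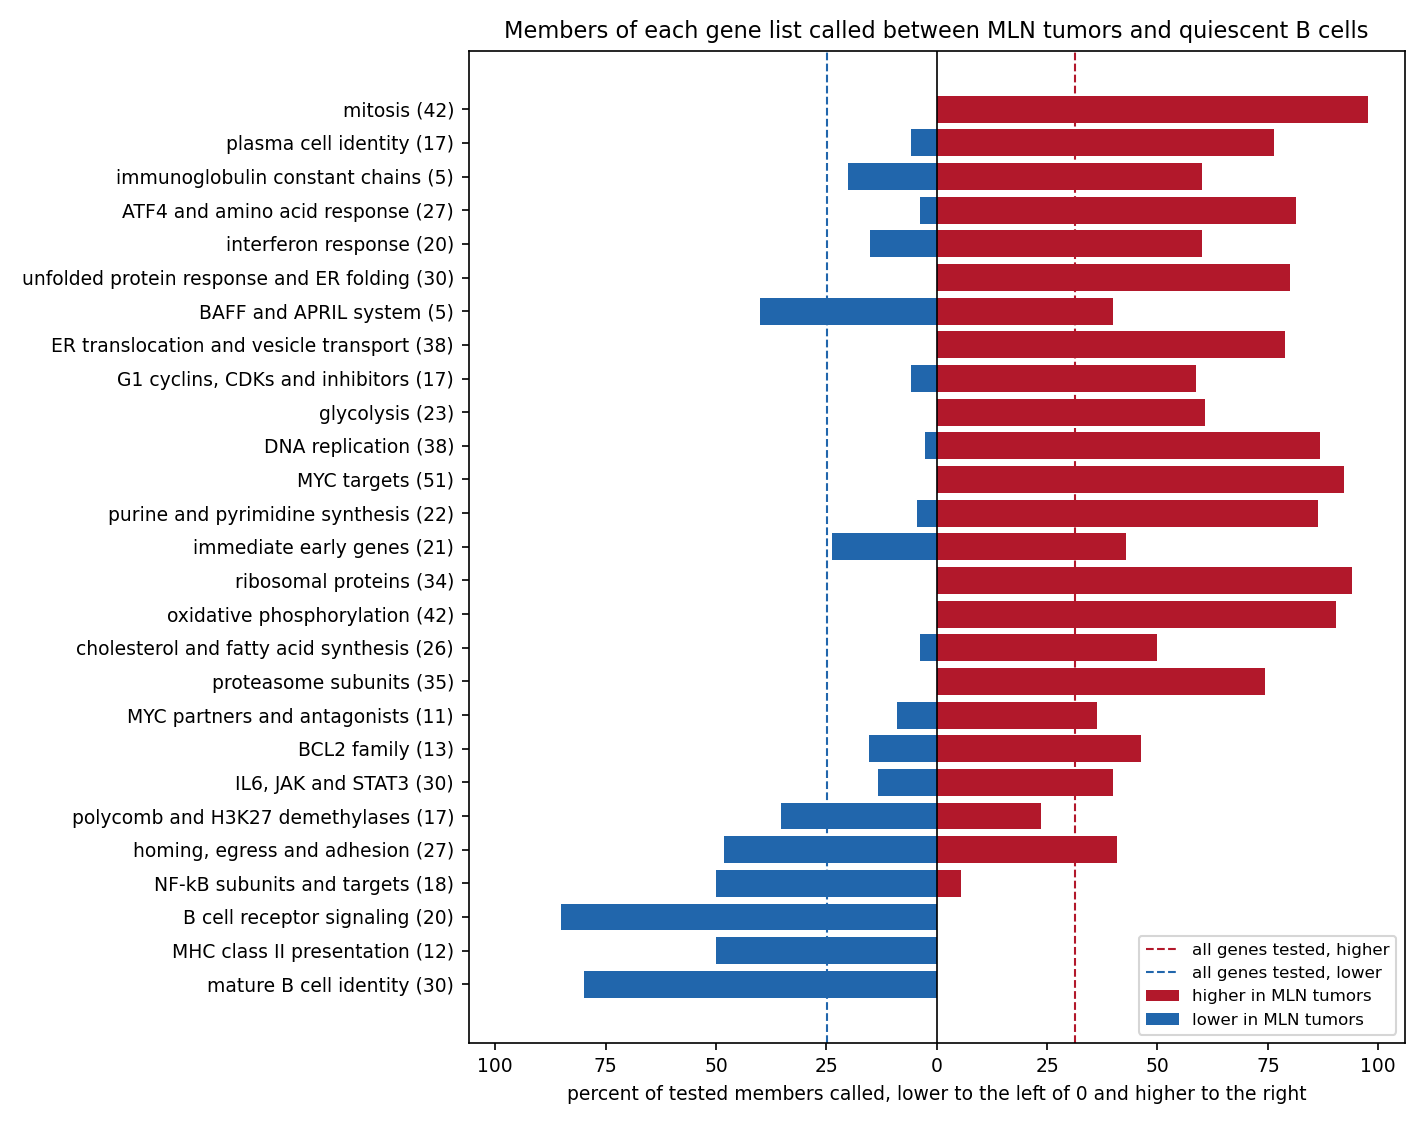
Bars give the percent of tested members of each list (number tested in parentheses) called higher in MLN tumors (red, right of 0) or lower (blue, left of 0), ordered by median log2 change. Dashed lines mark all tested genes, 31.3% higher and 24.9% lower. Mitosis genes (41 of 42 higher) stand at one end and B cell identity genes (24 of 30 lower) at the other.

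Metabolic lists held more higher than lower genes. Of the oxidative phosphorylation genes 38 of 42 were higher and 0 lower (median 0.69), and NDUFA1 and UQCRQ, subunits of respiratory complexes I and III, rose by 2.37 ± 0.53 and 1.99 ± 0.40 (adjusted p = 0.00427 and 0.00281). Of the purine and pyrimidine genes 19 of 22 were higher and 1 lower (median 0.84). SHMT1 and TYMS, enzymes of the folate cycle that feeds thymidine synthesis, rose by 3.33 ± 0.39 and 2.76 ± 0.35 (adjusted p = 0.000249 and 0.000359), while CTPS2, which makes CTP, fell (log2 change -1.03 ± 0.20, adjusted p = 0.00201). Of the glycolysis genes 14 of 23 were higher and 0 lower (median 1.19). LDHB, a lactate dehydrogenase subunit, was between 1.05 and 20.0002 CPM in the MLN tumors (median 5.31), against 0.263, 0.199, 0 and 0.0603 CPM in the quiescent libraries (log2 change 5.96 ± 1.02, adjusted p = 0.00129). The lactate exporter SLC16A3 reached 125 CPM in mouse 1611, and its log2 change was 3.05 without that tumor and 5.65 with it. HK3, a hexokinase of myeloid cells, likewise had 2.55 without mouse 1611 and 3.40 with it. Neutrophil markers were highest in the same tumor, and their part in these values was not tested.

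Of the cholesterol and fatty acid genes 13 of 26 were higher and 1 lower (median 0.65), and 9 genes were called with quantile normalization. ELOVL6, which lengthens fatty acids, FDPS of the mevalonate pathway and INSIG1, which holds back the sterol sensor, rose by 2.62 ± 0.51, 1.95 ± 0.49 and 1.57 ± 0.39 (adjusted p = 0.00233, 0.00744 and 0.00686). SREBF2, the factor that drives cholesterol synthesis, was the member called lower (155 to 309 CPM against 367 to 408 CPM, log2 change -0.60 ± 0.17, adjusted p = 0.0109). Of the proteasome subunits 26 of 35 were higher and 0 lower (median 0.48), and PSMD14, PSMA5 and PSMA7 rose by 1.38 ± 0.35, 0.99 ± 0.16 and 0.95 ± 0.24 (adjusted p = 0.00825, 0.00115 and 0.00694).

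IL6 itself, the other factor in the model's name, had few counts. The estimated counts were 21.8, 1.24, 21.0, 3.81, 5.80, 25.2 and 6.60 in the MLN tumors, against 0.41, 1.99, 0 and 1.25 in the quiescent libraries, and the gene reached 1 CPM in fewer than 4 libraries, so it was not tested. The sources used here do not say whether transgene reads were counted under this name. Among 30 tested genes of the IL6, JAK and STAT3 pathway 12 were higher and 4 lower (median log2 change 0.22). Both receptor chains rose. IL6R, which binds IL6, was between 45.3 and 162 CPM in the MLN tumors (median 54.3), against 23.2, 27.4, 28.7 and 21.3 CPM in the quiescent libraries (log2 change 1.54 ± 0.35, adjusted p = 0.00495), and IL6ST, the signaling chain gp130, was between 57.1 and 160.1 CPM in the MLN tumors (median 76.9), against 42.4, 40.6, 46.2 and 47.2 CPM in the quiescent libraries (log2 change 1.099 ± 0.31, adjusted p = 0.0117). STAT3 did not pass (220.0 to 333 CPM against 238 to 289 CPM, log2 change 0.07 ± 0.14, adjusted p = 0.658), and its small change took either sign over the alternatives. The 4 members called lower, named after their values were seen, were the kinases JAK1 (-1.16) and TYK2 (-0.46), the repressor BCL6 (-1.19) and PIAS3, which inhibits STAT3 (-1.14). Some feedback inhibitors and targets had larger changes. SOCS3, which STAT3 induces to stop the signal, was between 24.3 and 221 CPM in the MLN tumors (median 63.1), against 11.6, 10.9, 13.0 and 7.00 CPM in the quiescent libraries (log2 change 3.07 ± 0.58, adjusted p = 0.00204). SOCS2 and NFIL3 rose by 3.78 ± 0.68 and 3.37 ± 0.33 (adjusted p = 0.00163 and 0.000116). CISH was called (log2 change 2.40 ± 0.79, adjusted p = 0.0243), with a log2 change of 1.70 without mouse 1610, and did not pass without quiescent library 2, 3 or 4 (adjusted p = 0.0515 to 0.0714). VEGFA, the growth factor of blood vessels, stood at 21.5, 186, 67.7, 89.8, 59.5, 113 and 115 CPM in the MLN tumors, against 1.05, 0.954, 1.16 and 2.05 CPM in the quiescent libraries. The groups lay far apart, and no tumor was near the quiescent range (log2 change 6.17 ± 0.63, adjusted p = 0.000126).

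Survival genes shifted between members of the BCL2 family, of which 6 of 13 were higher and 2 lower (median 0.30). BCL2L1, which encodes the survival protein BCL-XL, stood at 21.6, 139.6, 53.6, 34.7, 86.6, 103 and 150.2 CPM in the MLN tumors, against 7.74, 7.67, 8.72 and 9.59 CPM in the quiescent libraries (log2 change 3.32 ± 0.54, adjusted p = 0.00107). BCL2, its relative in resting B cells, was between 16.5 and 100.5 CPM in the MLN tumors (median 44.4), against 145, 143, 158 and 157 CPM in the quiescent libraries and fell (log2 change -1.52 ± 0.36, adjusted p = 0.00581). Both genes separated the groups fully, in opposite directions. MCL1, a survival protein of plasma cells, did not pass (664 to 1258 CPM against 1021 to 1085 CPM, log2 change -0.32 ± 0.18, adjusted p = 0.136), and was lower without mouse 1611 (-0.50, adjusted p = 0.00604). The death-promoting genes BBC3 (PUMA) and BCL2L11 (BIM) rose by 3.55 ± 0.42 and 1.81 ± 0.30 (adjusted p = 0.000275 and 0.00121). BMF, another of this kind, was called lower (log2 change -0.80 ± 0.30, adjusted p = 0.04), and lost the call without mouse 1609, 1613 or 1614 or any 1 of the 4 quiescent libraries (adjusted p = 0.05005 to 0.0689). In the BAFF and APRIL system, the receptors TNFRSF13C (BAFF receptor) and TNFRSF13B (TACI) fell by 1.18 ± 0.32 and 1.09 ± 0.23 (adjusted p = 0.0104 and 0.00362). The ligand genes TNFSF13B (BAFF) and TNFSF13 (APRIL), picked after their values were seen, rose at low levels, with 0.448 to 10.2 CPM against 0.0526 to 0.369 CPM and 1.42 to 6.62 CPM against 0 to 0.784 CPM in MLN tumors and quiescent cells (log2 change 3.34 ± 0.92, adjusted p = 0.0112 and log2 change 3.45 ± 0.88, adjusted p = 0.00785). Myeloid cells are known sources of both ligands. The 2 highest values of each ligand were in mice 1609 and 1615, whose dendritic cell markers were also the 2 highest, and the part of those cells was not tested. Neither ligand was called with a filter of 5 CPM or with quantile normalization.

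Homing and adhesion genes split evenly, with 11 of 27 higher and 13 lower (median log2 change -0.14). Of the 24 calls 22 showed no overlap, against 4664 of the 6208 calls over all tested genes. 3 receptors that guide naive B cells were picked after their values were seen. CXCR5 (entry to follicles) stood at 135, 49.2, 317, 156, 154, 18.0 and 39.7 CPM in the MLN tumors, against 599, 569, 582 and 511 CPM in the quiescent libraries (log2 change -2.19 ± 0.60, adjusted p = 0.0107). CCR7 (entry to nodes) and S1PR1 (exit from tissue into blood and lymph) fell by 1.595 ± 0.40 and 1.97 ± 0.52 (adjusted p = 0.00749 and 0.00917). S1PR2, a receptor that confines germinal center B cells, changed the other way. It was between 42.7 and 123 CPM in the MLN tumors (median 59.8), against 5.53, 4.65, 4.05 and 2.77 CPM in the quiescent libraries, and all tumors lay far above the quiescent libraries (log2 change 4.08 ± 0.40, adjusted p = 0.000117). CDH1, the adhesion protein E-cadherin, was between 1.505 and 56.9 CPM in the MLN tumors (median 5.70), against 0, 0.119, 0.105 and 0.0603 CPM in the quiescent libraries (log2 change 8.07 ± 1.48, adjusted p = 0.00174), with a count ratio of 234 (95% counting interval 107 to 638). ITGAX, the dendritic cell integrin CD11c, was called (log2 change 4.26 ± 1.44, adjusted p = 0.0265), but 750.2 CPM in mouse 1615 set its size. Its log2 change was 2.90 without mouse 1615, and it did not pass without any 1 of the 4 quiescent libraries (adjusted p = 0.0533 to 0.0724).

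Of 18 NF-kB subunits and targets 9 were lower and 1 higher (median log2 change -0.63), against 24.9% and 31.3% of all genes. CD40, the receptor through which T cells activate B cells, was between 13.4 and 90.4 CPM in the MLN tumors (median 59.97), against 219.5, 217, 198 and 198 CPM in the quiescent libraries (log2 change -2.16 ± 0.50, adjusted p = 0.00512). NFKB2, the subunit of the alternative pathway, fell by 1.69 ± 0.38 (adjusted p = 0.00443). The chemokine CCL22 was the member called higher (2.26 to 12.1 CPM against 0.835 to 1.05 CPM, log2 change 2.79 ± 0.57, adjusted p = 0.0029). Interferon response genes went the other way in number, with 12 of 20 higher and 3 lower (median 2.05), and 5 were called with quantile normalization. IFI44 and OAS2, an antiviral enzyme, rose by 3.46 ± 0.72 and 2.96 ± 0.81 (adjusted p = 0.00317 and 0.0108). RSAD2, an antiviral protein, was called (log2 change 3.53 ± 1.195, adjusted p = 0.027), had 2.63 without mouse 1611 and 4.52 without quiescent library 3, and did not pass without quiescent library 1, 2 or 4 (adjusted p = 0.0718 to 0.0756). The sensor DDX58 (RIG-I) fell (55.4 to 117 CPM against 128 to 141 CPM, log2 change -0.93 ± 0.19, adjusted p = 0.00268), and so did the transcription factors IRF9 (-0.57, adjusted p = 0.0227) and IRF1 (-0.46, adjusted p = 0.0347). IRF1 lost its call without mouse 1609, 1613, 1614 or 1616 or quiescent library 2 (adjusted p = 0.0503 to 0.0565). Mean log2 levels of the 20 genes were highest in mice 1611 (6.24) and 1615 (5.85), against 3.55 to 3.92 in quiescent libraries. Macrophage markers had mean log2 levels of 6.255 and 6.83 in those mice, 6.15 in mouse 1609 and 3.97 to 5.53 in the other MLN tumors, against 1.75 to 3.68 in quiescent libraries, and their part in the interferon result was not tested.

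Immediate early genes, which respond quickly to stimulation, were 9 higher and 5 lower of 21 (median 0.82), and 9 were called without quiescent library 1. NR4A2, a nuclear receptor, rose by 6.14 ± 1.28 (adjusted p = 0.00313). IER3 and FOSL2 were highest in mouse 1611, and their log2 changes were 3.61 and 3.98 without it, against 6.34 and 4.999 with it. IER3 had 7.17 without quiescent library 4. Chromatin regulators of the polycomb system were 4 higher and 6 lower of 17 (median -0.00). Without mouse 1609, mouse 1610, quiescent library 1 or quiescent library 3, 6 of them were called, and without quiescent library 2, 5. EZH2, the methyltransferase of this system, was between 31.01 and 102 CPM in the MLN tumors (median 53.8), against 16.6, 21.98, 24.2 and 21.4 CPM in the quiescent libraries (log2 change 1.44 ± 0.31, adjusted p = 0.00384). CBX2 rose by 1.39 ± 0.32 (adjusted p = 0.00508). BMI1 stood at 138, 611, 103, 183, 209, 287 and 1426 CPM in the MLN tumors, against 113, 123, 120.4 and 93.7 CPM in the quiescent libraries. It was called (log2 change 1.91 ± 0.71, adjusted p = 0.0395), had 1.17 without mouse 1616, and did not pass without mouse 1610 or any 1 of the 4 quiescent libraries (adjusted p = 0.0617 to 0.0950).

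Markers of other cell types were present in the MLN tumors despite the bead depletion, unequally between mice. Macrophage markers summed to 897 to 4840 CPM in the MLN tumors, against 117.2 to 376.4 CPM in the quiescent libraries, with 12 of 14 tested markers called higher. C1QB, a complement protein of macrophages, was between 105.3 and 1165 CPM in the MLN tumors (median 332), against 0.843, 4.89, 8.30 and 15.6 CPM in the quiescent libraries (log2 change 6.27 ± 1.07, adjusted p = 0.00128), and its log2 change was 6.86 without quiescent library 4. FCGR1A and MARCO, an Fc receptor and a scavenger receptor, rose by 6.12 ± 1.27 and 5.81 ± 1.34 (adjusted p = 0.00308 and 0.00503). FCGR1A had 5.18 without mouse 1615 and 7.02 without quiescent library 4, and MARCO had 5.12 without mouse 1611. Neutrophil markers summed to 25.11 to 1464 CPM in the MLN tumors, against 8.85 to 10.62 CPM in the quiescent libraries, and 9 of 10 were called higher. The sum in mouse 1611 was 1464 CPM and the next highest, in mouse 1609, 384.4 CPM. Without mouse 1611 the log2 changes of the granule genes LCN2, MMP8 and S100A8 were 5.40, 6.13 and 5.78, against 8.98, 7.72 and 7.30 with it. LCN2 had 9.57 without quiescent library 2.

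Stromal markers summed to 133.8 to 606.6 CPM in the MLN tumors, against 16.07 to 98.26 CPM in the quiescent libraries, with 13 of 14 called higher and the highest sums in mice 1614 and 1616. The collagens COL1A1 and COL1A2 rose by 6.85 ± 1.77 and 6.59 ± 1.59 (adjusted p = 0.00838 and 0.00618), or 6.24 for COL1A1 without mouse 1616 and 7.23 for COL1A2 without quiescent library 4. T cell markers summed to 47.49 to 1093 CPM in the MLN tumors, against 269.3 to 289.4 CPM in the quiescent libraries. Here 1 tumor, that of mouse 1610, lay above the quiescent range and the others within or below it, although 12 of 17 markers were called higher. The T cell receptor genes CD3E and TRBC1 had log2 changes of 5.62 and 5.24, and 3.85 and 3.66 without mouse 1610. TRBC1 had 6.61 without quiescent library 2. CD2, which mouse B cells also carry, was the marker called lower. It was between 19.5 and 153 CPM in the MLN tumors (median 57.7), against 199, 198, 198 and 179 CPM in the quiescent libraries (log2 change -1.53 ± 0.49, adjusted p = 0.0222) and made up most of the quiescent sum. Without quiescent library 1, 8 T cell markers were called. Erythroid markers summed to 15.61 to 1422 CPM in the MLN tumors, against 9.223 to 24.85 CPM in the quiescent libraries, with 1422 CPM in mouse 1609. Of 10 markers 9 were called, and the membrane gene SLC4A1 had a log2 change of 2.15 without mouse 1609, against 4.23 with it. SLC4A1 did not pass without any 1 of the 4 quiescent libraries (adjusted p = 0.0583 to 0.0879). The number of erythroid markers called was 1, 0, 2 and 3 without quiescent library 1, 2, 3 and 4.

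Dendritic cell markers summed to 34.67 to 841.2 CPM in the MLN tumors, against 20.76 to 38.18 CPM in the quiescent libraries, highest in mouse 1615. ITGAX alone made up most of the sum in that tumor. By mean log2 level of the markers, mice 1609 and 1615 were about equal (4.167 and 4.15). Of 8 tested markers 6 were called higher, or 3 without quiescent library 1, 2 or 3. CLEC9A, a receptor of dendritic cells, was 0.897 to 21.3 CPM against 1.26 to 2.78 CPM in MLN tumors and quiescent cells (log2 change 2.48 ± 0.65, adjusted p = 0.00907). NK cell markers summed to 8.203 to 71.71 CPM in the MLN tumors, against 12.17 to 14.3 CPM in the quiescent libraries, with 6 of 9 called higher. GZMA, a granzyme of killer cells, was 0.493 to 11.7 CPM against 0.0526 to 0.477 CPM (log2 change 4.74 ± 1.08, adjusted p = 0.00471), and had 5.91 without quiescent library 2. Endothelial markers summed to 9.49 to 30.1 CPM in the MLN tumors, against 2.371 to 6.756 CPM in the quiescent libraries, with 4 of 6 called (2 without quiescent library 2), and markers of node stroma and lymphatics to 1.316 to 30.45 CPM in the MLN tumors, against 0.3688 to 2.306 CPM in the quiescent libraries, with 2 of 3. CXCL12, a chemokine of stroma, was 0.340 to 22.9 CPM against 0.0527 to 0.483 CPM (log2 change 4.9998 ± 1.198, adjusted p = 0.00597). The adipocyte gene FABP4 had 70.8 CPM in mouse 1615, and a log2 change of 6.09, 4.16 without that tumor and 7.75 without quiescent library 1. EPCAM, an epithelial adhesion protein, was between 22.2 and 535 CPM in the MLN tumors (median 112), against 5.11, 5.68, 5.68 and 6.09 CPM in the quiescent libraries (log2 change 5.34 ± 1.00, adjusted p = 0.0019), whereas CDH17, a cadherin of gut epithelium, was lower (0.401 to 10.1 CPM against 12.1 to 15.8 CPM) and the gut genes VIL1, FABP2 and KRT20 lay under the filter. CDH17 lost its call without mouse 1614 or 1616 or any 1 of the 4 quiescent libraries (adjusted p = 0.0516 to 0.0700). Exocrine pancreas markers summed to 1.873 to 85.05 CPM in the MLN tumors, against 0.3161 to 262.4 CPM in the quiescent libraries, and 0 of 8 were called (1 without quiescent library 1). Marker calls also depended on low values. With a pseudocount of 5 in limma, 3 T cell, 2 NK cell, 4 neutrophil, 3 dendritic cell, 0 erythroid and 8 stromal markers were called. The part of these cells in the results above was not tested.

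**Figure D5:**
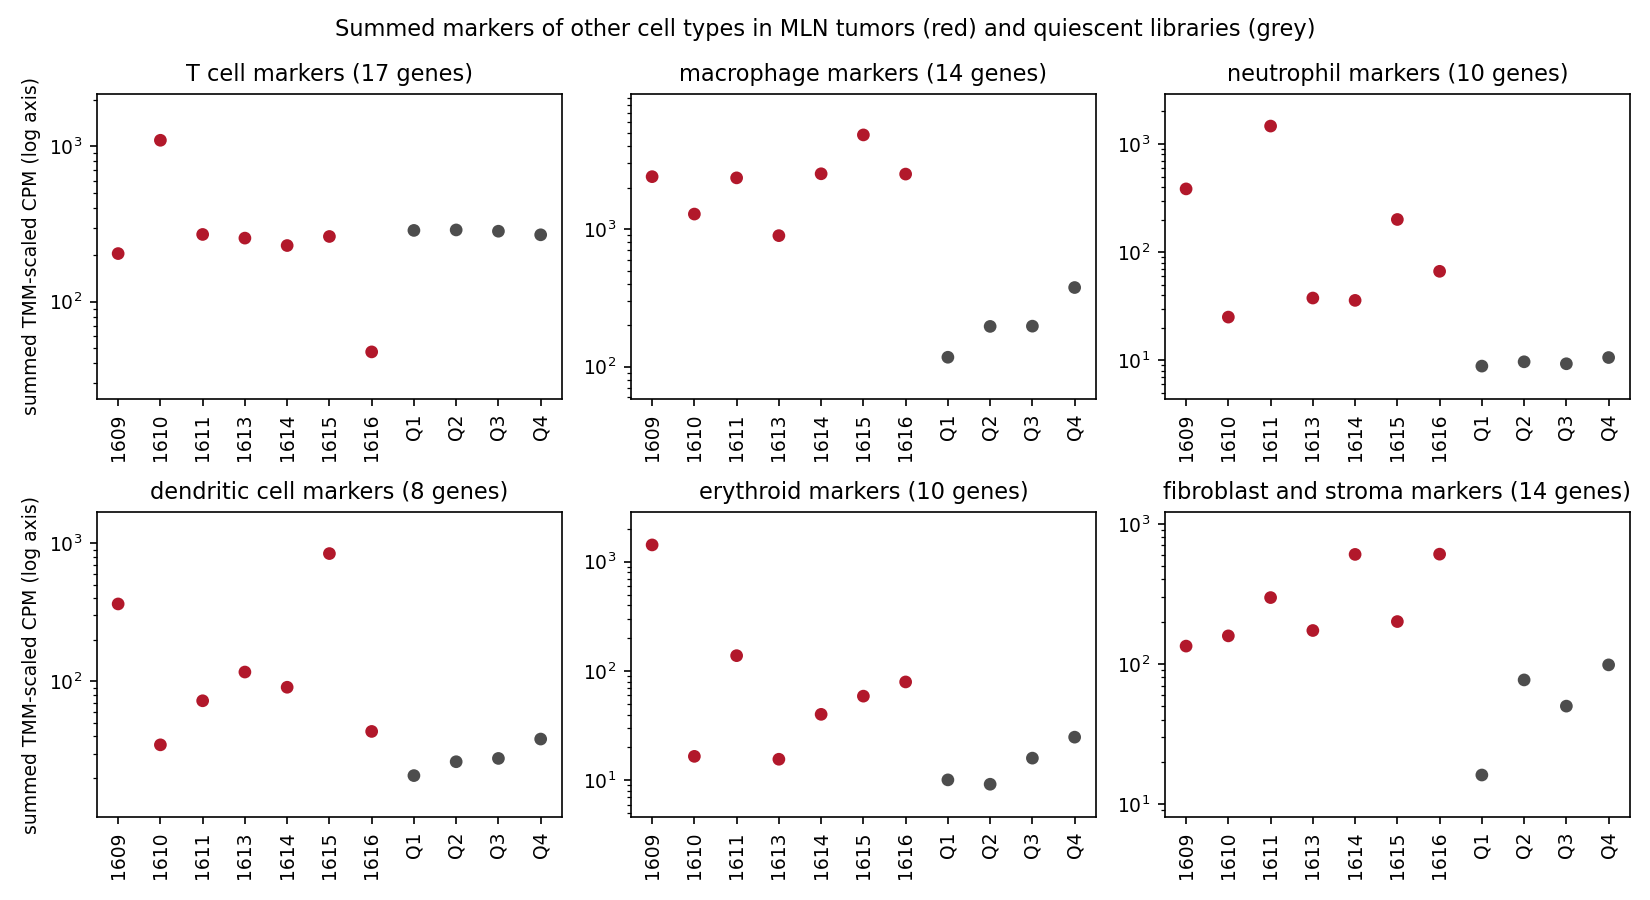
Points give the summed TMM-scaled CPM of the tested markers of 6 cell types in each library, on log axes, with MLN tumors by mouse number on the left (red) and quiescent libraries on the right (grey). Macrophage sums were higher in all 7 tumors, while single tumors had the highest sums for T cells (1610), neutrophils (1611), erythroid cells (1609) and dendritic cells (1615, mostly through ITGAX).

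The genes that varied most between MLN tumors, by the SD of log2(CPM + 1), were 5 V gene profiles, 4 genes of myeloid cells and CA3. IGHV7-81 stood at 92.0, 38606, 434, 8946, 54.5, 274 and 846 CPM in the MLN tumors, against 64.5, 86.9, 92.8 and 82.4 CPM in the quiescent libraries (log2 change 6.43 ± 2.10, adjusted p = 0.0233). Mouse 1610 was highest and mouse 1614 lowest, and without mouse 1610 the log2 change was 4.44. IGHV7-81 did not pass without any 1 of the 4 quiescent libraries (adjusted p = 0.0581 to 0.0618). A second profile of IGKV4-1 reached 28283 CPM in mouse 1614, and IGHV3-15 reached 4074 CPM in mouse 1615. Neither passed (adjusted p = 0.0724 and 0.123), nor did 2 further profiles of IGHV3-15. The myeloid receptors CD300E, CLEC4E and HCAR2 and the cytokine IL1B were called, with log2 changes of 7.06, 8.92, 5.998 and 6.32. Without mouse 1611 those of CLEC4E, HCAR2 and IL1B were 4.61, 1.88 and 5.04. Without mouse 1615 that of CD300E was 5.12. CA3, a carbonic anhydrase of muscle and fat, had 390.2 CPM in mouse 1615 and a log2 change of 7.48, or 8.85 without quiescent library 1. CD300E did not pass without any 1 of the 4 quiescent libraries (adjusted p = 0.0521 to 0.0635), CLEC4E without any 1 of the 4 quiescent libraries (adjusted p = 0.0502 to 0.0549), HCAR2 without mouse 1611 or any 1 of the 4 quiescent libraries (adjusted p = 0.0841 to 0.111) and CA3 without any 1 of the 4 quiescent libraries (adjusted p = 0.0616 to 0.0862).

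Other fits ended further calls of the genes named above. With all 23 libraries in 1 fit, JCHAIN, MS4A1, CCND1, HLA-DOB, HLA-DMB, CD74, CEBPG, BMF and CD2 did not pass, besides PAX5 (adjusted p = 0.0555 to 0.193). With library totals in place of TMM, CCND1, HLA-DOB, HLA-DMB, CEBPG, IRF9, IRF1, CDH17 and HCAR2 did not pass, besides PAX5 (adjusted p = 0.0510 to 0.0682). Without mice 1613 and 1614 the same held for JCHAIN, CCND1, IGHE, BMF, IRF9, IRF1 and CDH17 (adjusted p = 0.0508 to 0.0803). CEBPG and IRF1 did not pass with a filter of 5 CPM, CEBPG with DESeq2 size factors, CCND1 with no filter, and HCAR2 in DESeq2. The largest number of named genes, 43, lost the call with quantile normalization in limma (adjusted p = 0.0503 to 0.682). Among them were COL3A1, CCND1, CEBPG, IRF1, CHAC1, MYCL, SREBF2, CCL22, OAS2, CBX2, CLEC9A, GZMA, CXCL12 and COL1A2. In limma with a pseudocount of 5, 29 named genes did not pass (adjusted p = 0.0534 to 0.331), and 14 with a pseudocount of 1 (adjusted p = 0.0526 to 0.267). JCHAIN, IGHE, ITGAX, SLC16A3, RSAD2, SLC4A1, IGHV7-81, CD300E, CA3, CLEC4E and HCAR2 did not pass in any of these 3 limma fits. NPW, HK3, IER3, CD3E, TRBC1, LCN2, MMP8, COL1A1, FABP4, CISH and IL1B did not pass with quantile normalization or with a pseudocount of 5, and BMI1 did not with either pseudocount. Log2 values with a pseudocount understate the change of genes at low levels.

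The MLN tumors were also set against 7 spleen tumors of IL6Myc mice, 6 of which shared a mouse with an MLN tumor, to see whether site made a difference. In edgeR 0 of 11503 genes passed (0.00%), with 486 at an unadjusted p under 0.05 (4.22%) and a lowest adjusted p of 0.9998. A fit over the 6 pairs that took mouse as a block passed 0 of 11374, with 304 at an unadjusted p under 0.05 (2.67%). DESeq2 called 17 (0.148%), 13 higher in MLN tumors, with 678 at an unadjusted p under 0.05 (5.89%). On the CPM scale of these 14 tumors, COL3A1 averaged 74.5 ± 94.8 CPM in MLN tumors and 2.55 ± 1.95 CPM in spleen tumors (SD, n = 7 each), a log2 difference of 4.86 ± 1.11 in edgeR (adjusted p = 0.9998) and 4.91 ± 0.88 in DESeq2 (adjusted p = 0.000305). Of the 13, named after their values were seen, the collagens COL1A1, COL1A2 and COL6A2 and the matrix genes LUM and FBN1 are likewise genes of stroma. The others called higher were SEMA4G, C1S, EGFR, CLEC3B, RIMKLA, SMOC1 and PKN3. Those called lower were HOMER2, UGT8, ATP1B2 and CA1. MYC averaged 931 ± 474 CPM in MLN tumors and 804 ± 653 CPM in spleen tumors (SD, n = 7 each), SDC1 189.5 ± 149 and 115 ± 135 CPM, and PAX5 492 ± 356 and 534 ± 472 CPM, each within the spread between tumors (adjusted p = 0.9998 for each in edgeR).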

How the data were processed

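RNA was extracted with the RNeasy kit and made into stranded total RNA libraries, per the labels' protocols. Reads were trimmed with Trim Galore 0.4.0 and the notes also name DESeq2 and build GRCm39, per the submitters' processing notes. The aligner and the counter are not stated there. The deposited table holds estimated counts, read as such from its non-whole values and unequal library totals although it carries the name TPM, and the authors listed mouse genes under human symbols. Of its 61651 entries 21282 hold values. Human names with identical values in every library were merged to 15871 profiles, and 464 of them carry more than 1 name. The 21 Y-linked entries, EIF2S3 among them because mice carry a copy on Y, were left out.

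Estimated counts were rounded to whole numbers and genes with at least 1 CPM in at least 4 of the 11 libraries were fitted in edgeR 4.0.16 (R 4.3.3) with TMM scaling and a robust quasi-likelihood test, adjusted by Benjamini-Hochberg. Standard errors were derived from each log2 change and its F statistic. Single values were compared by exact permutation over libraries. Alternatives used limma 3.58.1, DESeq2 1.42.0, other scalings and filters, all 23 libraries in 1 fit, and each library left out in turn. The calculation was tested on simulated data. It recovered 40% of 100 genes changed by 1 on the log2 scale and 98% of 100 changed by 2. A gene that was not called may therefore still differ by 2-fold or more. In the data, TNFRSF17 and the second profile of IGKV4-1 had log2 changes of 1.80 and 5.4 and were not called. The recovered shares thus set no upper limit on a missed change. Recovery for genes that vary as much between tumors as these was not tested. Counting intervals are exact at 95%, floors are 3 counts, and both cover counting error only.

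Gene lists and the libraries compared were chosen with earlier results of these data known. Genes were named by a rule: 30 genes of the model; the 10 largest rises and falls without overlap at a mean of 10 CPM or more; the 3 largest called changes in each list at 5 CPM or more, with up to 3 called members of the rarer direction; the 10 most variable genes between MLN tumors; and the 8 lowest adjusted p-values each way at 2-fold or more. Some genes that met the rule are not reported here. Genes outside the rule are marked as picked after their values were seen.

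MLN and spleen tumors with the same number come from 1 mouse, per the series' design text. Over the 6 pairs, their deviations from the group means correlated at -0.21, -0.36, 0.4, -0.3, -0.49 and 0.72 in mice 1610, 1611, 1613, 1614, 1615 and 1616.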

Additional observations from a re-analysis of the deposited data

Results flagged for a closer look

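Of 362 groups of values of the named genes, 14 in MLN tumors and 15 in quiescent libraries held 1 library far from the rest of its group, measured as its gap to the nearest library over the group's range (above 0.568 for 7 tumors and 0.829 for 4 quiescent libraries). Chance sets apart about 1 in 20 groups. That rate does not hold for OVOL3, EPHA8, CHRND, PLPPR1, EEF1A2 and NPW, which had counts in 1 quiescent library alone, nor for genes named because they varied most between tumors.

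Among the MLN tumors, the tumor of mouse 1611 stood above the others for the lactate exporter SLC16A3 (125 CPM), the early response gene IER3 (105 CPM), the RNA sensor DDX58 (117 CPM) and the myeloid receptors CLEC4E (467 CPM) and HCAR2 (367 CPM). The tumor of mouse 1615 was highest for FABP4 (70.8 CPM), CA3 (390 CPM) and 3 profiles of IGHV3-15 (4070, 1360 and 516 CPM), and lowest for SREBF2 (155 CPM). The erythroid gene KEL was highest in mouse 1609 (33.3 CPM). CLEC9A was lowest in mouse 1610 (0.897 CPM), and MID1 was highest in mouse 1613 (1120 CPM).

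Among the quiescent libraries, number 4 was lowest for IRF4 (207 CPM), GAD1 (21.4 CPM), SREBF2 (367 CPM) and CD2 (179 CPM) and highest for IER3 (0.543 CPM). Number 3 was lowest for MKI67 (22.2 CPM) and highest for EPHA8 (0.158 CPM) and CHRND (0.0526 CPM). Number 2 was highest for CDKN1A (3.86 CPM), TRBC1 (1.43 CPM) and OVOL3, PLPPR1 and NPW (0.0398 CPM each). Number 1 was highest for ASNS (4.37 CPM) and EEF1A2 (0.0527 CPM).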

How the results depend on the processing

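The number of genes called between MLN tumors and quiescent cells, 6208, ranged from 4991 to 6596 with 1 library left out and from 4991 to 7005 over all 22 alternatives. It was 5215 with quantile normalization, which moved the median log2 change of all genes to -0.11, and 6066 without mice 1613 and 1614, a set chosen after seeing the data. The median was 0.27 with no filter on low values. Of 3944 values of the 181 named genes under an alternative, 3691 kept the direction and the side of the threshold, 230 no longer passed, 10 newly passed and 13 changed sign. Among the 172 called genes, 118 held under every alternative. Of 902 counts over the 41 lists, 78 moved by more than 1.5 times, and the cause was not tested.

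The genes that changed sign had not passed. STAT3 was -0.015 with library totals, -0.021 with no filter, and -0.022 to 0.116 with 1 library left out. CCND3 was -0.036 to 0.218 with 1 library left out. IGHV3-15 was -0.941 in DESeq2, -0.083 in limma with a pseudocount of 1, -0.281 with quantile normalization, and -1.05 to 4.233 with 1 library left out. Its second profile was -0.46 in DESeq2, -0.086 with quantile normalization, and -0.501 to 4.675 with 1 library left out. Both were lowest without mouse 1615, and the cause was not tested otherwise.

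The difference in immunoglobulin share was 6.89 percentage points without mouse 1610 and 10.9 without mouse 1611, and 8.48 for constant chains and JCHAIN alone (exact permutation p = 0.124). Between MLN and spleen tumors 0 genes passed in edgeR under every alternative, including mouse as a replicate block (0 calls), while DESeq2 called 17, and the cause was not tested. No paired analysis was possible because MLN tumors and quiescent libraries share no replicate number. IL6 reached 1 CPM in too few libraries to be tested with the filter.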
